A study of Mus musculus with 5 samples.

Results

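The genes described here are 206 mouse genes whose symbol is Zfp followed by a number and whose promoter carried a KAP1 peak and no Ring1b peak in embryonic stem cells. They were taken by symbol from the authors' table of promoters with KAP1 only, where they filled 209 of 6919 rows and 206 of 6797 symbols. Chromatin immunoprecipitation and sequencing (ChIP-seq), which maps where a protein sits on DNA, gave 5 libraries with 1 library per group. For KAP1 the cells were KAP1 fl/fl, given either vehicle or 4-hydroxytamoxifen (OHT), which deletes the conditional allele. Ring1b was mapped in Ring1b fl/fl cells given vehicle or OHT, and in KAP1 fl/fl cells given OHT. Treatment lasted 24 h, followed by 48 h of culture on irradiated embryonic fibroblast feeders. In vehicle cells the 2 proteins were thus mapped in different fl/fl lines, and the deposited values are peak lists and gene tables with no read depth and no expression. Nothing here has a replicate error, no comparison was tested, and the cell type could not be checked against markers in these files. Intervals in brackets are exact 95% intervals that cover counting error over genes only.

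Most numbered zinc finger genes encode proteins with an array of C2H2 zinc fingers that reads DNA, and many of these proteins also carry a KRAB domain. The KRAB domain binds KAP1 (Trim28), a corepressor that brings histone methylation and heterochromatin proteins to the bound site. Such KRAB zinc finger proteins silence retroelements and hold imprints in embryonic stem cells, and their genes lie in tandem clusters that arose by duplication. Ring1b (Rnf2) is the catalytic subunit of Polycomb repressive complex 1, another repressive system. A few numbered symbols encode other proteins, such as Zfp36, a CCCH finger protein that speeds the decay of messenger RNA.

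The RefSeq annotation of GRCm38.p6 holds 397 numbered protein-coding zinc finger genes. Of these, 203 stood in the KAP1 only promoter table under their own or an older Zfp symbol. A further 28 stood there under another deposited name, 73 had both proteins, 9 had Ring1b only and 84 were in no promoter table. Over all protein-coding genes 34.4% had a KAP1 only promoter. Among the 206 symbols, 201 matched the annotation as written and 5 through their accession, for example Zfp191, now Zfp24, and Zfp828, now Champ1. Zfp433, Zfp672 and Zfp781 had 2 rows each, and for each of them the row with the higher KAP1 score is used below.

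The peak score, 10 times the caller's -log10 p as deposited, ranks peaks within 1 list only. The promoters of the 3 members with the highest scores are shown first, as the 250 bases before the transcript start in RefSeq (GRCm38.p6), 5′ to 3′ on the gene's own strand. Capitals mark, on either strand, the GC box core GGGCGG, the letters CCAAT of the CCAAT box, the ETS core CCGGAAG, and the block ACTACANNTCCC described further on, where N is any base.
Zfp13, chr17:23599488-23599737, minus strand: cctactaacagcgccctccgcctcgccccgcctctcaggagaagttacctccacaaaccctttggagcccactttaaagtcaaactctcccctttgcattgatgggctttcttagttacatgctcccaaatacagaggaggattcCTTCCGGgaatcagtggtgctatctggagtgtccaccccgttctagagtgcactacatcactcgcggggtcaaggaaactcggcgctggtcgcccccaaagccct
Zfp36, chr7:28379229-28379478, minus strand: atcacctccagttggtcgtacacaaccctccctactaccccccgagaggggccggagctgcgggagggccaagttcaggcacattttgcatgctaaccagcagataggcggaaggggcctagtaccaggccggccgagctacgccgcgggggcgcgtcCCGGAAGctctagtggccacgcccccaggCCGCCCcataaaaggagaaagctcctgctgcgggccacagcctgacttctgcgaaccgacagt
Zfp473, chr7:44748618-44748867, minus strand: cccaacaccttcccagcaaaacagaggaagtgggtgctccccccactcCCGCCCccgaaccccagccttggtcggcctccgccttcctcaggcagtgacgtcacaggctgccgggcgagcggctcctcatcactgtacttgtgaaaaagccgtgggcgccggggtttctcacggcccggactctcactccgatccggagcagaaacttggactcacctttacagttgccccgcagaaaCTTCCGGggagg

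Zfp13 had a promoter KAP1 score of 436, Zfp36 of 412 and Zfp473 of 405. The Zfp13 peak spanned chr17:23598738-23599490 and the Zfp36 peak chr7:28379091-28379854. The deposited promoter region of Zfp13 merged with that of Zscan10, and that of Zfp473, which encodes a factor of histone messenger RNA processing, with that of Vrk3. All 3 upstream sequences held CCGGAAG on one strand or the other, and none held ACTACANNTCCC.

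The members did not lie evenly over the genome. Counts by chromosome include the 3 members whose current symbol is no longer Zfp and a number. Chromosome 7 held 58 members of its 93 numbered zinc finger genes, chromosome 17 held 28 of 46 and chromosome 13 held 26 of 38. On chromosome 15 the count was 9 of 11. Chromosome 4 held 27 such genes, of which 5 were members and 13 were in no table. Another 6 there had a KAP1 only promoter under another deposited name, so the symbol rule left them out. The X chromosome had 1 member among 9. Most members thus lay on chromosomes 7, 17 and 13, which also hold the most numbered zinc finger genes of any class. A cluster of 12 genes on chromosome 4 held 1 member.

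A run was defined as 3 or more numbered zinc finger genes, in any class, each within 200 kb of the next. The annotation held 29 such runs, and 118 of 206 members lay in one (57.3% [50.2-64.1]). Of all 397 numbered zinc finger genes, 197 lay in one (49.6% [44.6-54.7]), and the 2 intervals overlap. Among the 197 genes of all runs, 59.9% [52.7-66.8] were members, 7.11% stood in the table under another name, 14.7% had both proteins and 18.3% had neither. None of the 197 had a Ring1b only promoter, which allows a share of up to 1.52%. Of the genes outside runs 42.5% were members and 4.50% had Ring1b only.

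The run with the most members lay at chr13:67038594-67827000 and is called run 1. It held 23 numbered zinc finger genes, of which 17 were members, 1 stood under another name, 1 had both proteins and 4 were in no promoter table. High scores there included those of Zfp273 (219), Zfp738 (198), Zfp58 (187), Zfp493 (166), Zfp748 (159), Zfp87 (148) and Zfp429 (143). The lowest of the run was 72 and the median 129. It also holds Zfp708, a known silencer of a retroelement family, with a score of 79.

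Run 2, at chr7:29768552-30169775, held 15 genes and 12 members. Its leading member was Zfp568, which is known to repress a placental promoter of Igf2, with a score of 364. Zfp566 (298), Zfp382 (279), Zfp420 (148), Zfp82 (148), Zfp260 (133), Zfp940 (128) and Zfp27 (107) followed. KAP1 peaks were dense here, at 140 per Mb, against 33.5 per Mb over all autosomes and 64.7 per Mb in run 1. Gene density was not matched in this comparison, so the counts per Mb describe these stretches only.

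Run 3, at chr17:21383707-22456689, held 9 members among 18 genes and 5 genes with both proteins. Among these 5, Zfp942 and Zfp943 have a single merged promoter region in common, as do Zfp944 and Zfp758. Its 8 leading members were Zfp760 (254), Zfp820 (185), Zfp53 (183), Zfp946 (120), Zfp947 (116), Zfp52 (107), Zfp51 (99) and Zfp229 (87). Among the other runs, 4 had only members, the largest with 4 genes on chromosome 10, and 2 small runs of 4 and 3 genes, on chromosomes 7 and 9, had none. A larger run at chr4:146449030-147849126 had 1 member among 12 genes. That member, Zfp933, had the lowest score of all 206, at 51. In the chromosome 4 run 3 further genes stood in the KAP1 only table under other names and 8 were in no promoter table, although the stretch held 71 KAP1 peaks. Near-identical copies are common in such clusters. The sources used here do not say how reads that fit several copies were treated, so absence of a peak at a recent duplicate is uncertain.

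**Figure D1:**
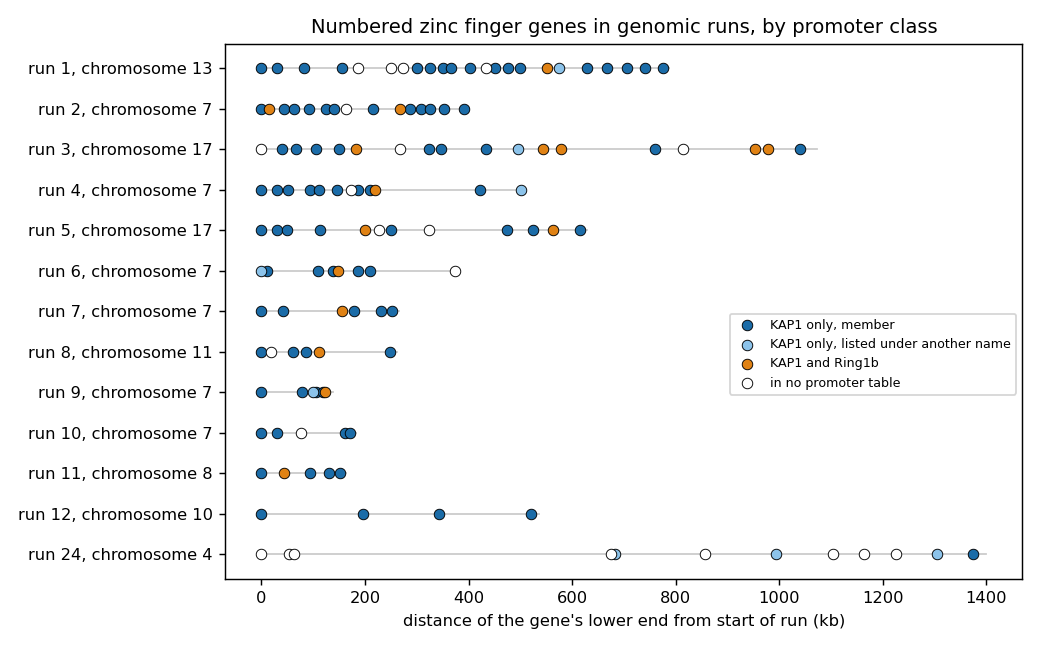
Each circle is 1 numbered zinc finger gene, placed by the distance of its lower coordinate from the start of its run (x axis, kb), for the 12 runs with the most members and for run 24 on chromosome 4. Dark blue circles are the members, and run 1 shows 17 of them among 23 genes, against 1 of 12 in run 24.

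The promoter peaks of the members were of ordinary strength among KAP1 only promoters. The median score was 128 [121-137], with quartiles of 99.2 and 187 and a range from 51 to 436, against 130 in the other 6591 genes of the table. The whole KAP1 list of 82775 peaks had a median score of 96.2, and 156 of 206 members lay above it. This is not particular to the members, since the other genes had a first quartile of 92.0. The score given for a promoter can also differ from that of its peak in the list. By list scores, the strongest promoter peaks had a median of 142 in the members and 139 in the other genes. In runs the median was 130 and outside runs 123, with overlapping intervals of [121-148] and [115-137]. These scores chose the members through the caller's threshold and are given as a description.

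After Zfp13, Zfp36 and Zfp473, the highest scores were those of Zfp90 (392), Zfp341 (370), Zfp568 (364), Zfp647 (319) and Zfp113 (303). Zfp341, known as a regulator of STAT3 expression, also had 1 of the widest peaks. The lowest scores were those of Zfp933 (51), Zfp799 (52), Zfp11 (53) and Zfp111 (53), all close to the minimum of 50.0 in the KAP1 list. Just outside the rule on the Ring1b side were Zfp326 and Zfp532, whose promoters had KAP1 scores of 172 and 326 and Ring1b scores of 51 each. Just outside it on the KAP1 side was Zfp979, whose nearest KAP1 peak lay 28 bp beyond the promoter region, and Zfp108, with a gap of 603 bp.

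Peak width also resembled the rest of the table. The median was 612 bp [584-647] with a range from 288 to 1477 bp, against 592 bp in the other genes. The 5 widest were at Zfp428 (1477 bp), Zfp592 (1309 bp), Zfp341 (1165 bp), Zfp263 (1090 bp) and Zfp119a (1059 bp). Their scores were 221 at Zfp428, 91 at Zfp592, which encodes a subunit of a chromatin reader complex, 370 at Zfp341, 143 at Zfp263 and 142 at Zfp119a, so 4 of the 5 lay above the members' median score. The borders in the gene table were those of a listed peak in 79 of 209 rows and the summit was in 197 of 209.

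The rule requires a KAP1 peak that reaches within 1 kb of a transcript start, so nearness to the start is a description. Strand and a single start were known for 185 members, and the summit was a median of 156 bp from the start, against 147 bp in the other KAP1 only genes. It was within 500 bp in 90.8% [85.7-94.6], against 81.4%, and the peak covered the start in 84.9% [78.9-89.7], against 75%. Members with summits far from the start included Zfp462, at 1500 bp downstream, Zfp42 at 1189 bp downstream and Zfp704, with an offset of -1379 bp. The strands of Zfp462 and Zfp704 were inferred from the nearer gene end.

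The side of the start on which the summit lay was compared between members in runs and outside runs, with intervals that overlap slightly. In runs the summit was downstream in 69 of 113 (61.1% [51.4-70.1]) with a median offset of 42.0 bp. Outside runs it was downstream in 29 of 72 (40.3% [28.9-52.5]) with a median of -40.0 bp, and in the other KAP1 only genes in 43.1% with a median of -28.0 bp. Run 1 stood out among the 3 largest runs, with 13 of 16 summits downstream and a median of 196 bp, against 8 of 11 and 42.0 bp in run 2 and 4 of 9 and -84.0 bp in run 3. Without run 1 the downstream share in runs was 57.7% [47.3-67.7] (56 of 97). Genes of 1 run share ancestry and sequence, so they are not independent of each other, and the difference was not tested.

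**Figure D2:**
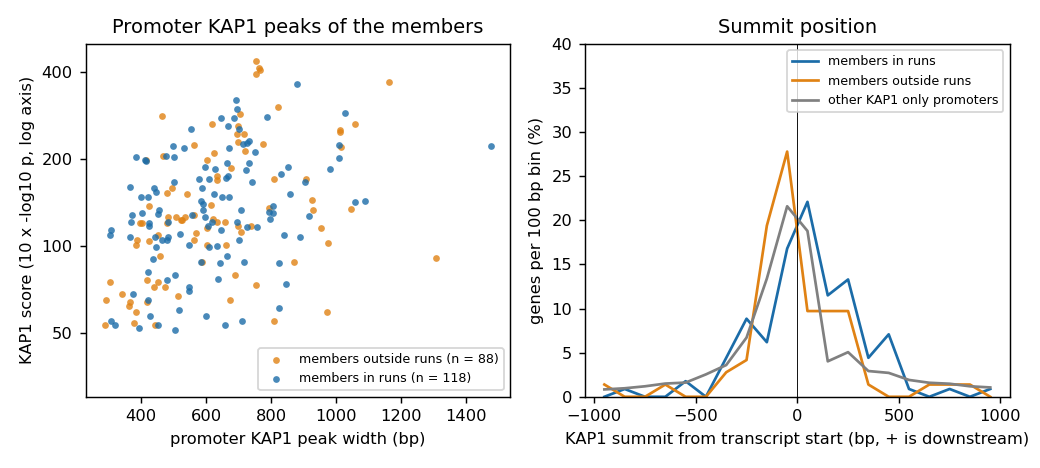
Left, promoter KAP1 peak width (x axis, bp) against KAP1 score (y axis, 10 times -log10 p, log scale), 1 point per member. Right, share of genes (y axis, %) by the distance of the KAP1 summit from the transcript start (x axis, bp, in bins of 100 bp), where members in runs lie to the right of members outside runs, with median offsets of 42.0 and -40.0 bp.

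Upstream letters were compared over the 170 members with a RefSeq promoter, in the 300 bases from 250 before to 50 after the start, on both strands. Members had a median of 14 CpG in this window, with 12 in runs and 17 outside runs. Other KAP1 only promoters had 20, numbered zinc finger genes in no class 8 and all RefSeq promoters 7. The GC box core GGGCGG was found in 44.1% of members [36.5-51.9], in 65.1% of other KAP1 only promoters and in 35.7% of all promoters. It was in 45% of the other numbered zinc finger genes and in 36.6% of those in no class, so the members were close to their own gene family here. CCAAT was in 50.6% [42.8-58.3] against 38.3% and 37.4%, with 47.5% of the other numbered zinc finger genes and 59.2% of those in no class. The ETS core CCGGAAG was in 22.9% against 20.9% and 8.86%, TCTCGCG in 4.71% against 5.63% and 2.56%, and TATAAA in 7.06% against 6.97% and 13.6%.

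One further pattern, ACTACANNTCCC, was looked for only after the promoters had been read, so its counts are a description. It is the block of 6 letters, 2 free bases and 4 letters that the most members of run 1 shared in the 250 bases before the start, so its count in run 1 follows from the choice. These letters belong to a sequence known as a binding site of Zfp143, itself a member. To show it, the last 120 bases before the start are given for 5 members of run 1 (Zfp273 to Zfp455), for Zfp566 and Zfp260 of run 2, and for Zfp53 and Zfp760 of run 3. They come from RefSeq (GRCm38.p6), 5′ to 3′ on the gene's strand, with capitals as before, and were chosen after their letters were seen.
Zfp273, chr13:67813696-67813815, plus strand: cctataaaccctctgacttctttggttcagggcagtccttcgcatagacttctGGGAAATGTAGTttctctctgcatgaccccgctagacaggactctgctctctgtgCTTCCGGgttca
Zfp738, chr13:67683513-67683632, minus strand: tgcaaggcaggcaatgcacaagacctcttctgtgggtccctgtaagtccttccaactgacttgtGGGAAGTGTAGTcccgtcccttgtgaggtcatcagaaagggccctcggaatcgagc
Zfp58, chr13:67500523-67500642, minus strand: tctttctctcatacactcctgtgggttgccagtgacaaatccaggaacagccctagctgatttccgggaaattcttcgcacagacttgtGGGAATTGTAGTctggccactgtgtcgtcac
Zfp748, chr13:67553153-67553272, minus strand: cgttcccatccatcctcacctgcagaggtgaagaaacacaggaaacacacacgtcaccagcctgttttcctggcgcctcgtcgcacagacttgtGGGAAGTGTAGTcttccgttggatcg
Zfp455, chr13:67194386-67194505, plus strand: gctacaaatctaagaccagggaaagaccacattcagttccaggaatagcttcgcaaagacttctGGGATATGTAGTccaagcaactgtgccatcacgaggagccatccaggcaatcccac
Zfp566, chr7:30090511-30090630, minus strand: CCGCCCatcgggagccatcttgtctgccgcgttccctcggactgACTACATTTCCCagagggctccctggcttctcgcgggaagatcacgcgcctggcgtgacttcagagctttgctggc
Zfp260, chr7:30094956-30095075, plus strand: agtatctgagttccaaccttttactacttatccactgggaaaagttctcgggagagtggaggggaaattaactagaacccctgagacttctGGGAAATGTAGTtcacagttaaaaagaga
Zfp53, chr17:21488868-21488987, plus strand: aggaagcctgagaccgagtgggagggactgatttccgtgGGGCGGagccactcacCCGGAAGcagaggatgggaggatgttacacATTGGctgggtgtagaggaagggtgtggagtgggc
Zfp760, chr17:21707621-21707740, plus strand: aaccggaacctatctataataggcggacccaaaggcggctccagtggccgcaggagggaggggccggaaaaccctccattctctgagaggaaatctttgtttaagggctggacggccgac

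All 5 sequences of run 1 and both of run 2 hold the pattern, on one strand or the other, and neither sequence of run 3 does. Counted over all members with a promoter, it was in 14 of 15 in run 1, in 8 of 11 in run 2 and in 5 of 7 in run 4. It was in 0 of 8 in run 3 and in 0 of 7 in run 5. Runs 7, 8, 20 and 24 had it in 2 of 5, 2 of 2, 1 of 2 and 1 of 1, and no such member of any other run held it. Genes of 1 run share ancestry, so the intervals below treat related genes as independent. In runs 1 and 3 the other genes had like counts. The 5 genes of run 1 with a RefSeq promoter that are not members all held it, and none of the 9 such genes in run 3 did. This did not hold in every run. In run 24 the other genes had it in 0 of 8, and in run 10 members had it in 0 of 3 and other genes in 1 of 1. Without run 1, from which the pattern was chosen, 25 of 155 members held it (16.1% [10.7-22.9]), with 22.1% in the other runs and 8.70% outside runs. With run 1 included, the share of all members was 22.9%. The pattern was in 11.2% of the other numbered zinc finger genes and in 15.5% of those in no class, which both include genes of run 1, in 4.43% of other KAP1 only promoters and in 1.81% of all RefSeq promoters. The 5 non-members of run 1 that held it are still counted among the other numbered zinc finger genes. The members' share without run 1 is thus not matched to either zinc finger set, and no comparison is drawn. Its median position in the members was 50.0 bp upstream of the start. Members with and without it had median KAP1 scores of 129 and 128. Without run 1 the summit was downstream in 15 of 24 members with the pattern, at a median of 35.0 bp [-92.0 to 88.0], and in 53 of 112 without it, at a median of -13.0 bp [-54.0 to 42.0], and these intervals overlap.

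Over the whole gene, KAP1 was the only protein called in most members. The rule already requires KAP1 and no Ring1b at the promoter, so this is a description beside the share of all such genes. In the authors' whole-gene tables, 173 of 206 were KAP1 only (84.0% [78.2-88.7]; 70.1% of all KAP1 only promoter genes). Both proteins were called in 16 (7.77%; 11.5% of all), no class was given to 16 (7.77%; 18.4% of all), and 1 gene, Zfp579, was Ring1b only (0.485%; 0.0147% of all). The 16 with both included Zfp13, Zfp36, Zfp647, Zfp64 and Zfp710, and the 16 in no class included Zfp809, Zfp687, Zfp335 and Zfp750.

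The share of genes in no whole-gene class differed by strand, in the members and in the rest of the table. For 177 members with a plain promoter region and a row in a whole-gene table, 95 whole-gene regions began 1 kb before the transcript start, all on the plus strand, and 78 ended at the transcript start, all on the minus strand. In these rows the deposited region was extended at its lower coordinate only, and a minus-strand gene lost the part of its promoter upstream of the start. No class was given to 3 of 104 plus-strand members (2.88%) and to 13 of 102 on the minus strand (12.7%). In the other KAP1 only promoter genes these shares were 11.9% and 24.5%. The part of the region's extent in this difference was not tested. With the KAP1 peaks counted over the RefSeq gene span instead, 91.3% of members [86.5-94.7] were KAP1 only and 1 had no class (0.485%). Over all KAP1 only promoter genes these shares were 86.8% and 2.54%.

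Further KAP1 peaks within the gene were about as common as elsewhere in the table. A KAP1 peak besides those at the promoter lay in 111 of 206 members (53.9%; 54.2% of all KAP1 only promoter genes). Zfp462, which guards heterochromatin in pluripotent cells, had 31 KAP1 peaks in 139 kb, Zfp704 had 25 in 183 kb, Zfp710 had 16 in 67.9 kb, Zfp64 had 12 in 62.3 kb and Zfp809 had 12 in 28.5 kb. The median length of the members was 15.7 kb, against 19.6 kb in the other genes.

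The far end of the gene, where the exon that codes for the fingers usually lies, carried a KAP1 peak within 1 kb in 45 of the 202 members whose ends were far enough apart (22.3% [16.7-28.6]; 19.9% of all). The share was 17.1% in runs and 29.4% outside runs, with overlapping intervals of [10.8-25.2] and [20-40.3]. These far-end peaks had a median score of 95.7. The strongest, with a score of 534, lay where the ends of Zfp692 and Zfp672 adjoin and counts for both. Those of Zfp455 (310) and Zfp329 (304) followed, and these genes were picked out after their values were seen.

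Ring1b was absent from all 209 promoter regions by the rule, and its distance was measured to the nearest peak in vehicle cells. Within 5 kb of the promoter region 11 of 206 members had a Ring1b peak (5.34% [2.70-9.35]; 8.28% of all KAP1 only promoter genes). In runs this was 1 of 118 (0.847% [0.0215-4.63]) and outside runs 10 of 88 (11.4% [5.59-19.9]). At 10 kb the shares were 5.08% and 15.9%, beside 15.8% of all KAP1 only promoter genes. The intervals at 5 kb did not overlap, while those at 10 kb did, as did those at 2 kb ([0.0215-4.63] and [1.87-12.8]). Genes of 1 run are neighbours and can have the same nearest Ring1b peak, so they are not independent, and the difference was not tested. Further away the sets ran together, with medians of 47.5 kb in runs, 44.1 kb outside runs and 41.6 kb in other KAP1 only genes.

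The members just inside the rule were Zfp579, with a Ring1b peak of score 251 at 124 bp from its promoter region, and Zfp236, with one of score 406 at 264 bp. Zfp13 had a Ring1b peak of score 64.1 at 1266 bp, and Zfp36 one of score 50.6 at 1510 bp. Zfp579, the only member of a run with a Ring1b peak within 5 kb, had a KAP1 score of 53 and no KAP1 peak in its gene span, whereas that span held 2 Ring1b peaks.

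**Figure D3:**
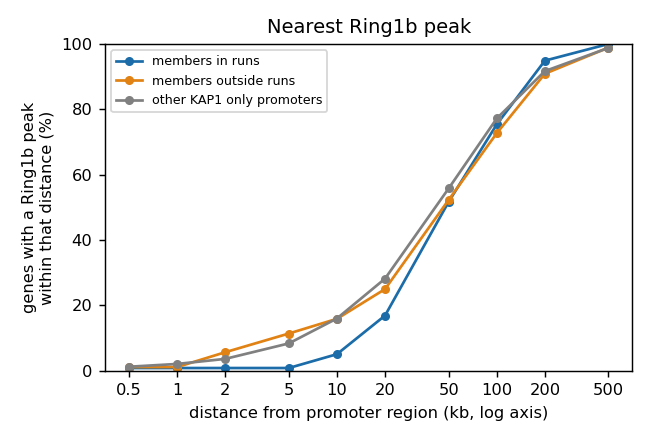
Cumulative share of genes (y axis, %) with a Ring1b peak within a given distance of the promoter region (x axis, kb, log scale). Members in runs stay at 0.847% up to 5 kb, where members outside runs reach 11.4% and other KAP1 only promoters 8.38%, and the lines meet near 50 kb.

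The third peak list came from the Ring1b antibody in KAP1 fl/fl cells given OHT, called against Ring1b in Ring1b fl/fl cells given OHT, and is called the knockout list. Its control is another cell line, so a peak in it is a difference between libraries and cannot be told apart from a difference between lines. It held a peak at the promoter of 17 of 206 members (8.25% [4.88-12.9]; 5.34% of all KAP1 only promoter genes). Within 5 kb the count was 35 (17.0% [12.1-22.8]; 10.4% of all), and within the gene span it was 35 (17.0%; 17.3% of all). At the promoter the share was 5.08% in runs and 12.5% outside runs, with overlapping intervals of [1.89-10.7] and [6.41-21.3].

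These peaks were as narrow as those of the list at other KAP1 only promoters, with median widths of 222 and 218 bp. The 18 knockout-list peaks at member promoters were 149 to 404 bp wide and scored 50.5 to 87.2, where the list's threshold is near 50. Of these, 17 overlapped a KAP1 peak of vehicle cells (94.4% [72.7-99.9]), against 88.5% [84.7-91.6] at other KAP1 only promoters. Since every such promoter holds a KAP1 peak by the rule, this overlap is a description. By KAP1 score the first 8 members were Zfp568, Zfp647, Zfp113, Zfp397, Zfp750, Zfp639, Zfp825 and Zfp213. Zfp213 had the highest knockout-list score, 87.2, with a KAP1 score of 152. At Zfp568 the knockout-list peak, chr7:29983877-29984237, lay inside the KAP1 peak at chr7:29983562-29984442 and scored 75.8. The 1 peak off KAP1 was at Zfp933, the member with the lowest KAP1 score. Ring1b in vehicle KAP1 fl/fl cells was not analysed here.

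**Figure D4:**
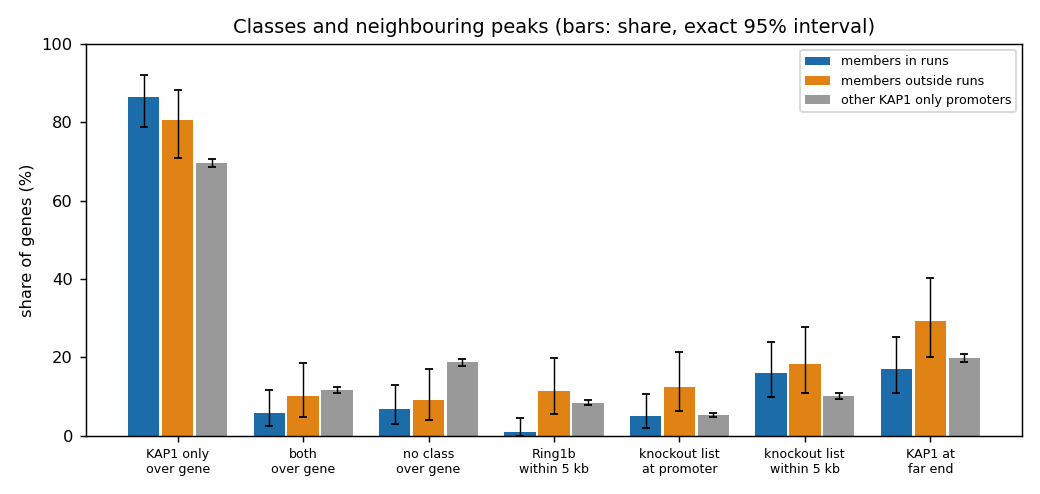
Share of genes (y axis, %) in each whole-gene class and with a Ring1b, knockout-list or far-end KAP1 peak, for members in runs, members outside runs and other KAP1 only promoters, with exact 95% intervals as error bars. For Ring1b within 5 kb the intervals of members in runs (0.847%) and members outside runs (11.4%) do not overlap, while those of the other 6 measures do. The intervals treat genes of 1 run as independent.

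Zinc finger genes were also grouped by known role, beside 58.2% of all numbered zinc finger genes with a KAP1 only promoter under any name. Of 10 listed for imprint and retroelement control, 8 had a KAP1 only promoter, Zfp819 had both proteins and Zfp445 was in no promoter table. Zfp568 scored 364, Zfp809, which silences proviruses in embryonic cells, 276, and Zfp57, which holds imprinted methylation, 220. The rest were Zfp64 (135), Zfp961 (128), Zfp932 (123), Zfp52 (107) and Zfp708 (79). The Zfp57 peak, chr17:37002257-37003273, was 1017 bp wide. Scores within this list thus ran over most of the range of all members.

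Of 8 genes tied to pluripotency, 7 were members, against the same 58.2%, and Zfp296 had both proteins. With lists this short these counts were not tested. Zfp281, a partner of the core pluripotency factors, scored 209, and Zfp42 (Rex1), a marker of undifferentiated cells, scored 204. Zfp322a scored 159, Zfp217 138, Zfp462 133, Zfp143 115 and Zfp706 55. The promoters of Zfp217 and Zfp143 also carried knockout-list peaks, of 53.5 and 51.5. In the CCCH group Zfp36 was a member, and its paralogues Zfp36l1 and Zfp36l2 had both proteins.

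Coregulators and developmental factors were divided, with 5 of 10 KAP1 only and 5 shared. The members among them were Zfp687 (244), Zfp384 (151), Zfp335 (134) and Zfp592 (91), while Zfp148 stood under the name of its neighbour. The shared genes Zfp423, Zfp521 and Zfp703, regulators of development, had Ring1b scores of 1862, 3100 and 3100 and KAP1 scores of 134, 90 and 113. The other shared genes of the list had low Ring1b scores, 51 at Zfp532 and 85 at Zfp827, with KAP1 scores of 326 and 137. Of 8 genes with other cellular roles, 5 were KAP1 only, among them Zfp598 (112), which marks collided ribosomes, Zfp622 (111), a ribosome assembly factor, and Zfp207 (101), a kinetochore protein. Of 18 genes for KAP1 itself and its partners, 10 were KAP1 only, 6 had both proteins, 1 had promoters in both classes and Chd3 had Ring1b only. The share of the last list, 10 of 18, stands beside 34.4% of all protein-coding genes and was not tested.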

How the data were processed

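Deposited ChIP-seq peak lists and gene tables from 5 libraries (1 per group, mouse embryonic stem cells) were used. The submitters' processing notes name bedtools 2.16.2, MACS 1.4.2, CASAVA 1.8.2 and Bowtie2, and the build mm10 (GRCm38). Per the file headers, the authors called vehicle KAP1 against OHT KAP1 and vehicle Ring1b against OHT Ring1b of the same line. The score that the authors deposited is 10 times -log10 p, rounded to whole numbers in the gene tables. The sources used here give no read depth. Per the labels' protocols, 5 µg of KAP1 antibody or 3 µg of Ring1b antibody was used.

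Members were the rows of the KAP1 only promoter table whose symbol is Zfp and a digit, 1 row per symbol (the highest score). Deposited promoters reach 1 kb to either side of a start, and overlap meant at least 1 bp. Coordinates are 1-based. Gene spans and sequences came from RefSeq tables (GRCm38.p6). Strands came from the RefSeq promoters or, for genes without one there, from the gene end nearer to the deposited promoter. A start needed 1 strand and 1 start per region. Shares have Clopper-Pearson intervals and medians order-statistic intervals at the 95% level. A count of 0 was bounded at 3 counts of the total. Scripts were tested on simulated data. With 1 library per group no test was made, and intervals cover counting error only.

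Genes named were members of the fixed lists, the 8 highest and 4 lowest scores, the 5 widest peaks, the 5 with most KAP1 peaks in the gene, up to 8 with a knockout-list peak and up to 8 in each of the 3 largest runs. Other genes were named to show values at a threshold or in a small count, after their values were seen. The members and lists were chosen with earlier results of these data known. One gene that meets the rule is not reported here.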

Additional observations from a re-analysis of the deposited data

How the results depend on the processing

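Of the planned changes of threshold, window or border, 10 moved a value beyond its interval. The share of members in runs was 66.0% with gaps of up to 500 kb and 44.7% when a run needed 5 genes. The KAP1 only share over the whole gene was 91.3% from peaks over the RefSeq span (86.8% of all KAP1 only promoter genes). In a split chosen after seeing the data, it was 90.4% on the plus strand and 77.5% on the minus strand. In the other KAP1 only promoter genes these strand shares were 74.2% and 65.9%. The median peak width was 727 bp with the borders of the peak list, and the median distance to the start was 106 bp from the peak's midpoint. Ring1b was within 10 kb of 9.71% of members, against 15.8% of all KAP1 only promoter genes. Knockout-list peaks were within 5 kb of 17.0% (10.4% of all) and in the gene span of 17.0% (17.3% of all). A KAP1 peak lay within 2 kb of the far end in 31.7% (30.4% of all). One with a score of at least 100 lay within 1 kb in 10.4% (11.7% of all). These windows differ by construction, and for the midpoint and the peak-list borders the cause was not tested. Using autosomes only, or every row of the table, moved no value beyond its interval.

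With a KAP1 score of at least 100, 154 members were left. Scores from 1 library and its control, with unknown depth, limit what can be said of weak peaks. No paired analysis was possible because each group has 1 library and no test was made. The planned search for KRAB patterns in the proteins was not run.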
